A study of Mus musculus with 4 samples.

Results

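The comparison described here sets mouse motor cortex that received a vector for SIK3 lacking exon 13 against motor cortex that received the same vector with wild-type SIK3. It holds 1 single-nucleus RNA library for each vector. Barcodes with 500 or more detected genes and under 5% of unique molecular identifiers (UMIs) from mitochondrial transcripts were taken as nuclei. This left 5819 of 6259 barcodes in the library with exon 13 deleted (the Ex13del library) and 6729 of 6978 in the wild-type vector library (the WT library), together 12548 of the 27085 kept nuclei of the series. A nucleus with 3 or more UMIs summed over Slc17a7, Sv2b, Gad1 and Gad2 was called a neuron, which gave 2968 neurons and 2851 other nuclei in the Ex13del library, and 3540 neurons and 3189 other nuclei in the WT library.

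Both vectors were AAV8, an adeno-associated virus serotype, given locally, with the human synapsin promoter (hSyn) driving FLAG-tagged SIK3, so that expression is directed to neurons. All 4 libraries of the series came from C57BL/6N mice, and the others are an ad lib sleep library and a library after sleep deprivation with gentle handling, for which the labels give no vector. Brains were frozen and cut coronally, primary motor areas were dissected, and nuclei were isolated by homogenization and a sucrose gradient before droplet-based 3' sequencing. The number of animals behind each library, their age and the time from injection or of day at collection are not given in the sources used here, and the labels list no group with an empty vector. With 1 library per group there is no replicate check and no test, and every interval below covers counting error only.

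SIK3 is a salt-inducible kinase of the AMPK-related family that is activated by the kinase LKB1 and phosphorylates class IIa histone deacetylases and the CRTC coactivators of CREB, keeping both in the cytoplasm. Protein kinase A phosphorylates SIK3 at serines outside the kinase domain, which promotes 14-3-3 binding and restrains the kinase. One of these serines is encoded by exon 13, and skipping of this exon in Sleepy mutant mice gives a long-sleeping animal, which is why the deletion is described as a gain of function. The vector carries this deletion into neurons of otherwise wild-type mice.

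Exon 13 of the annotated Sik3 transcript with 25 exons lies on the plus strand at chr9:46198552-46198707 (mm10). It is 156 bases long and encodes 52 codons with 0 bases over, so that its loss keeps the reading frame. The sequence is shown because it is what separates the vectors. Capitals mark the 4 codons for Arg-Arg-Ala-Ser, the only match in the exon to the basic-basic-any-serine pattern that protein kinase A prefers.
Sik3 exon 13: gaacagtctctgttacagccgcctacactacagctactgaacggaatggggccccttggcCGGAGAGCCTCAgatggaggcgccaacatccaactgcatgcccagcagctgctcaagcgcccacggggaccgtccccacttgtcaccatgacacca
The reads come from the 3' ends of transcripts, and 4512 bases of the transcript follow this exon, so these counts do not show which form of Sik3 a nucleus carried. The labels and not the reads tell the vectors apart.

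Sik3 itself differed little between the vector libraries. In neurons it was 227 CPM in the Ex13del library, 223 CPM in the WT library, 174 CPM after ad lib sleep and 223 CPM after sleep deprivation, and the ratio of the Ex13del to the WT library was 1.02-fold (95% interval 0.990 to 1.05). In other nuclei it was 404 against 352 CPM. The vector was read through a feature for the end of its transcript (WPRE_pA, a viral element that stabilizes messenger RNA followed by the polyadenylation signal). It had 2071 UMIs in Ex13del neurons and 2610 in WT neurons, or 60.7 against 69.9 CPM, and 0 UMIs in either uninjected library. In other nuclei it was 324 against 77.2 CPM, a ratio of 4.20-fold (95% interval 3.87 to 4.55). Of the 2909 UMIs in Ex13del other nuclei, 2114 lay in 47 nuclei with 10 or more of them, against 57 UMIs in 4 nuclei of the WT library. Of these 47 nuclei 41 were placed in no glial or vascular class by their marker scores.

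At least 1 vector UMI was found in 25.2% of Ex13del neurons (exact 95% interval 23.6 to 26.8) and 21.6% of WT neurons (20.2 to 22.97). The same share was 21.1% and 17.2% in astrocyte-like nuclei, in which the synapsin promoter should be silent, although these held a median of 3025 and 2876 UMIs against 10227.5 and 9408 in neurons. A single vector UMI was therefore not enough to call a nucleus vector-bearing. Whether some nuclei with 1 to 2 vector UMIs carried the vector was not tested. Nuclei with 3 or more made up 3.57% of Ex13del neurons (2.93 to 4.30) and 4.29% of WT neurons (3.65 to 5.01), against 1.71% and 0.256% of astrocyte-like nuclei. The sums described below thus hold mostly neurons without clear vector RNA, in both libraries.

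The libraries were close in depth and differed in makeup. Neurons summed to 34107020 UMIs in the Ex13del library and 37358000 in the WT library, and other nuclei to 8979261 and 9936745. Neurons were 51.0% of kept nuclei in the Ex13del library (exact interval 49.7 to 52.3) and 52.6% in the WT library (51.4 to 53.8). Neurons rich in markers of striatal projection neurons were 10.8% (9.72 to 11.98) of Ex13del neurons and 5.68% (4.94 to 6.49) of WT neurons, against 5.65% and 10.8% after ad lib sleep and sleep deprivation, and cortical glutamatergic neurons were 71.3% and 76.2%. The 10 excitatory neuron markers, fixed to check the labelled cortex, summed to 1704 against 1762 CPM in neurons, with none at 0. They include Slc17a7 and Sv2b, which the neuron rule uses, so this check is not independent of that rule. The 2 vector libraries shared 11 cell barcodes. In sums over nuclei, fewer cells of a type and less RNA per cell cannot be told apart.

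Among the 12333 genes of neurons past the floor, a mean of 5 CPM (UMIs scaled to a common total) and 100 UMIs over both libraries, more lay above than below. The fold threshold was a log2 ratio of 0.32 either way, with 1 CPM added to each level, so that a gene past it is at least 25% higher in one library. By this threshold 530 genes were higher in the Ex13del library, which is 4.3% of those past the floor, and 59 were lower, which is 0.478%. The median log2 ratio over all 12333 genes was 0.035. When the libraries were scaled by the median gene ratio instead of the total, the counts were 410 and 92, so that the share of higher genes among those past the threshold went from 90.0% to 81.7%. The Ex13del value was above both uninjected libraries for 423 of the 530 genes, and the WT value was below both for 287. Choosing genes for a high ratio favours both counts, and over all 12333 genes past the floor they were 4640 and 3704.

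**Figure D1:**
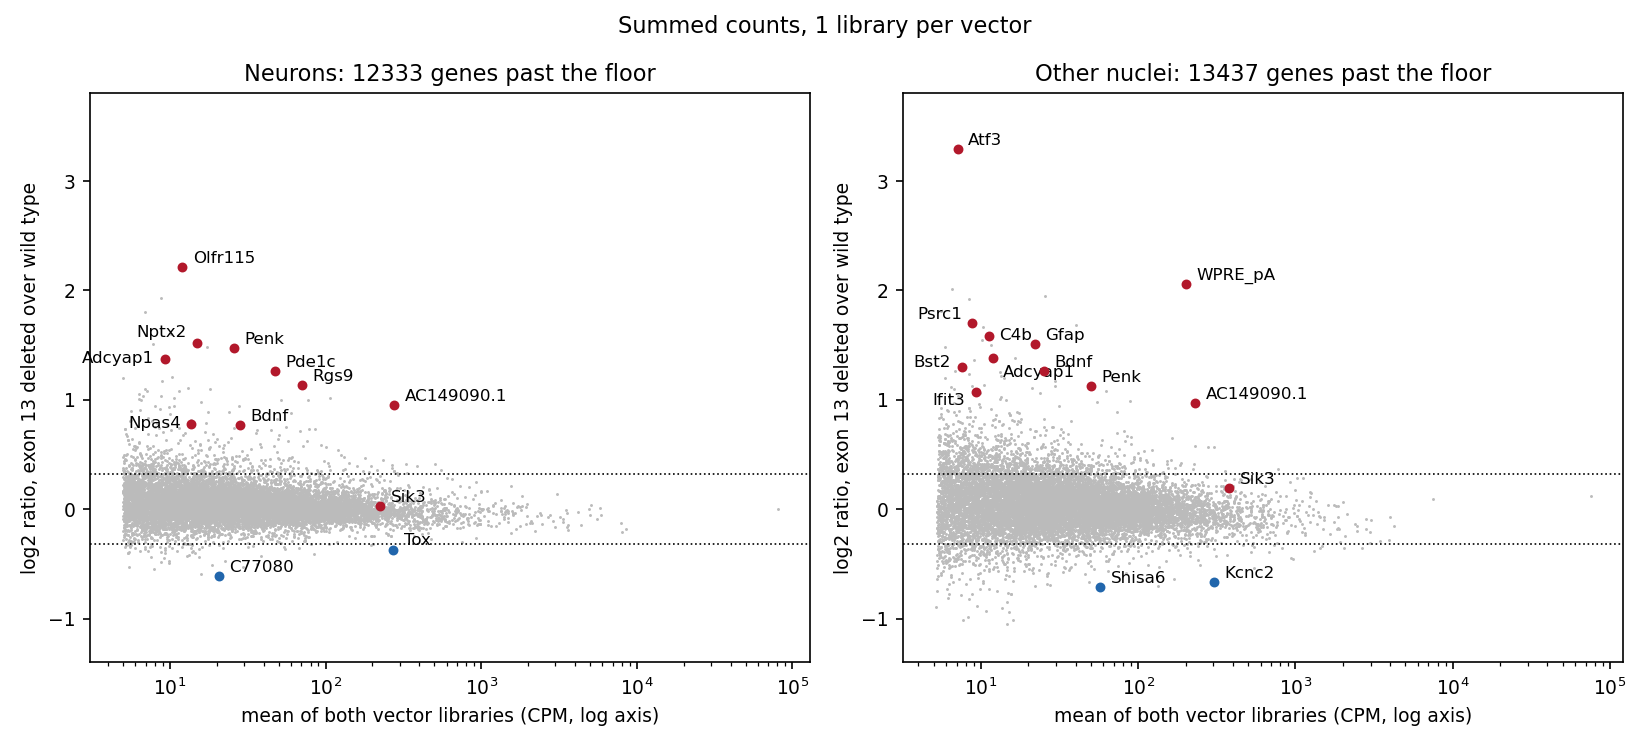
Log2 ratio of the Ex13del over the WT library (1 CPM added) against the mean of both (CPM, log axis) for each gene past the floor, in neurons (left) and other nuclei (right), with lines at the fold threshold. Coloured points are genes named in the text; in neurons Nptx2, Penk and Pde1c stand above a cloud in which 530 genes are past the upper line and 59 past the lower, and Sik3 lies near 0.

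Genes that neurons switch on with synaptic activity and calcium or cAMP signalling had medians above that of all genes. Over all genes past the floor in neurons 4.3% were higher past the threshold and 0.478% lower. The delayed activity-regulated genes, which encode growth factors, peptides and receptor-binding proteins made after the first transcription factors, had 12 of 27 members higher past the threshold and 0 lower, with a median log2 ratio of 0.25. Of the rapid immediate early genes, mostly transcription factors, 5 of 19 were higher past the fold threshold and 0 lower, with 18 of 19 above 0 and a median of 0.16. The list of cAMP and CREB targets, which shares members with both, had 3 of 19 higher past the fold threshold, 0 lower and a median of 0.05.

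Nptx2, a secreted pentraxin that gathers AMPA receptors at synapses onto interneurons, was 22.5 CPM in the Ex13del library, 7.17 CPM in the WT library, 10.6 CPM after ad lib sleep and 11.1 CPM after sleep deprivation, a ratio of 3.13-fold (95% interval 2.72 to 3.61). The Ex13del value stood above the other 3, of which the WT library was the lowest. Adcyap1, the precursor of the neuropeptide PACAP, was also highest in the Ex13del library, with 13.8 against 4.71 CPM, 6.58 and 4.83 CPM in the uninjected libraries and a ratio of 2.93-fold (95% interval 2.46 to 3.51). Bdnf, the neurotrophin that supports synaptic plasticity, was 35.6 CPM in the Ex13del library, 20.5 CPM in the WT library, 20.03 CPM after ad lib sleep and 25.8 CPM after sleep deprivation, a ratio of 1.74-fold (95% interval 1.58 to 1.90). Its only annotated overlap is Gm45346 on the other strand, and strand-specific counting is not stated.

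Scg2, a granin of dense-core vesicles, was 50.9 against 36.9 CPM with 36.8 and 55.9 CPM after ad lib sleep and sleep deprivation. Here the sleep-deprived library was higher still than the Ex13del library, and the WT and ad lib libraries were lower. Sorcs3, a sorting receptor at postsynaptic sites, had 311 against 243 CPM and 265 and 399 CPM, again with the highest value after sleep deprivation. Homer1, whose short form loosens postsynaptic scaffolds, went the other way between the vectors with 329 against 353 CPM. Inhba, an activin subunit induced by activity, was 65.7 against 51.8 CPM, a ratio of 1.27-fold (95% interval 1.19 to 1.35).

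Among the rapid genes Npas4, a transcription factor induced by calcium entry, was 17.6 CPM in the Ex13del library, 9.82 CPM in the WT library, 18.4 CPM after ad lib sleep and 12.9 CPM after sleep deprivation. The Ex13del and ad lib values lay together and above the WT value, and the Ex13del value was not above the ad lib library. Egr1 had 54.8 against 43.2 CPM, with 42.8 and 41.2 CPM in the uninjected libraries. Gadd45b, a stress and plasticity gene linked to DNA demethylation, was 6.74 against 3.99 CPM and its relative Gadd45g 6.66 against 3.61 CPM. Jun, a subunit of the AP-1 factor, was 14.3 against 9.74 CPM, whereas its partner Fos was 6.19 against 4.90 CPM. Nr4a1 and Junb were nearly level, with 57.2 against 55.2 CPM and 34.04 against 33.4 CPM. The rapid genes thus did not move as one.

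Summed levels of Bdnf and Nptx2, which include any background RNA, were higher in both main kinds of cortical neuron. In cortical glutamatergic neurons (Slc17a7 and Sv2b UMIs above Gad1 and Gad2) Bdnf was 41.8 against 23.7 CPM, Nptx2 25.7 against 7.73 CPM and Adcyap1 16.2 against 5.39 CPM. Cortical GABAergic neurons had lower levels and wider intervals, and no thinned shares were taken there. There Bdnf was 19.9 against 4.78 CPM (4.17-fold, 95% interval 2.68 to 6.69), Nptx2 15.9 against 4.05 CPM (3.93-fold, 95% interval 2.43 to 6.62) and Gadd45b 10.1 against 2.76 CPM (3.65-fold, 95% interval 2.02 to 6.997). Adcyap1 had 30 against 8 UMIs there, or 6.04 against 1.47 CPM (4.11-fold, 95% interval 1.84 to 10.4), and like Gadd45b was under the floor of 100 UMIs. Over all genes GABAergic neurons were more balanced than glutamatergic ones, with 651 higher and 405 lower of 10423, which is 6.25% and 3.89%, and a median log2 ratio of 0.0085. After each glutamatergic nucleus was thinned to 5000 UMIs, leaving out 274 of 2115 and 376 of 2696 shallower nuclei, 13.6% of Ex13del and 8.66% of WT nuclei held a Bdnf UMI (23.2% and 16.4% without thinning). The same thinned shares were 10.8% and 3.88% for Nptx2. In microglia-like nuclei, which should lack Bdnf and could only be thinned to 1000 UMIs, 3.19% and 0.469% held one. Nptx2 was held there by 4.26% and 0.939%, and in endothelial-like nuclei by 6.29% and 1.37%. Adcyap1 was held by 3.43% and 0.913% of endothelial-like nuclei. In every glial and endothelial class thinned, the Ex13del share was the higher for Bdnf, Nptx2 and Adcyap1, with overlapping intervals. Shares at 1000 and 5000 UMIs cannot be compared, so the part of background RNA in the glutamatergic shares was not tested. In glutamatergic neurons as a whole 538 genes were higher past the threshold and 67 lower, which is 4.42% and 0.551% of 12168, and 389 and 106 after scaling by the median gene ratio. The share of higher genes among those past the threshold thereby went from 88.9% to 78.6%.

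**Figure D2:**
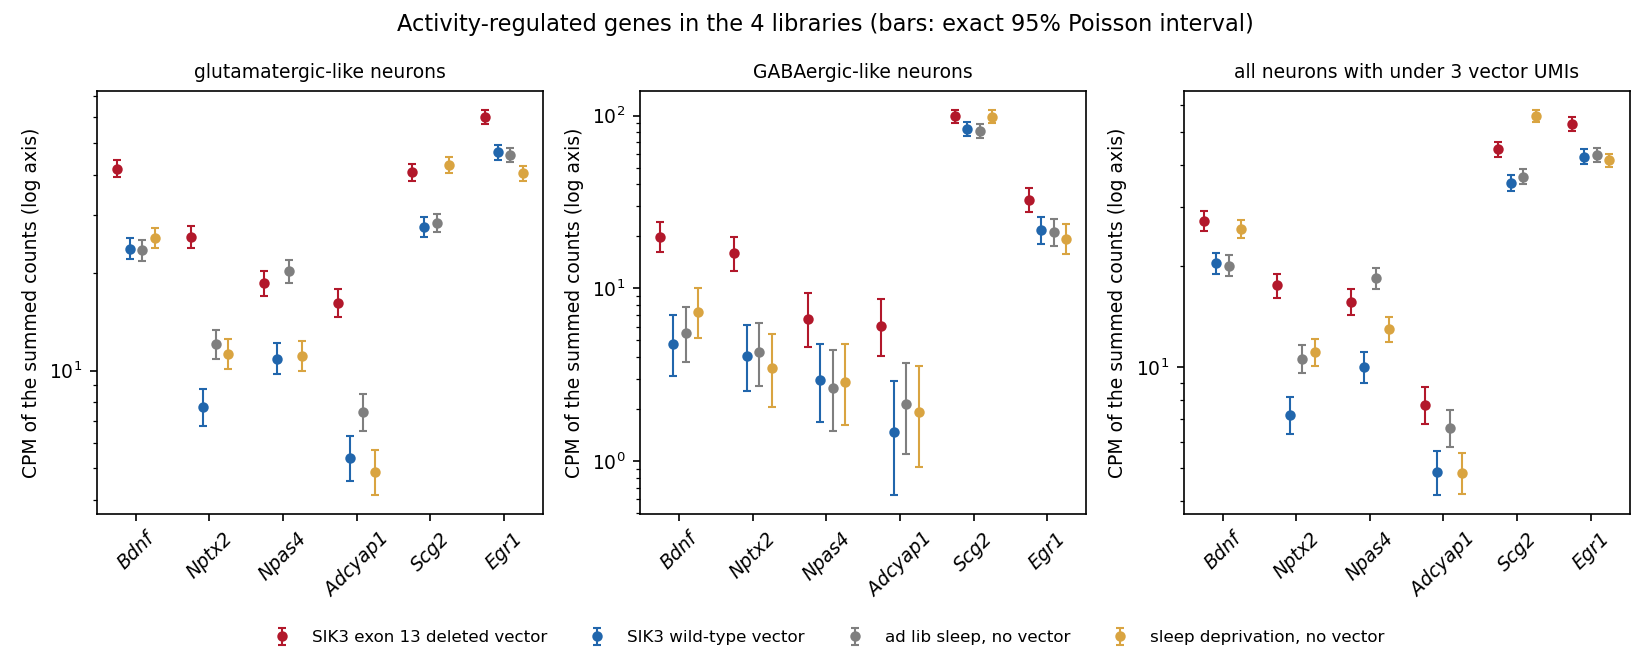
CPM (log axis) of activity-regulated genes in the 4 libraries, for cortical glutamatergic neurons, cortical GABAergic neurons and all neurons with under 3 vector UMIs, with bars for the exact 95% Poisson interval (counting error, 1 library per group). In glutamatergic neurons Nptx2 and Adcyap1 are highest in the Ex13del library, at 25.7 and 16.2 CPM, whereas Npas4 is highest after ad lib sleep, at 20.2 against 18.6 CPM in the Ex13del library.

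Promoter sequences of activity genes are shown because some members of these lists were higher in Ex13del neurons and CRTC coactivators act through CREB, which binds the cAMP response element TGACGTCA or its half-site TGACG. Windows of 300 bases, from 250 before to 50 after a RefSeq start on GRCm38.p6 (the mm10 assembly), were searched on both strands. Capitals mark the half-site in either orientation, the full element included. A gene can have several windows. For Bdnf, windows without a match were left out, so the one shown was chosen for holding the half-site. Adcyap1 had another window with a match, which is not shown.
Scg2, chr1:79439977-79440276, minus strand: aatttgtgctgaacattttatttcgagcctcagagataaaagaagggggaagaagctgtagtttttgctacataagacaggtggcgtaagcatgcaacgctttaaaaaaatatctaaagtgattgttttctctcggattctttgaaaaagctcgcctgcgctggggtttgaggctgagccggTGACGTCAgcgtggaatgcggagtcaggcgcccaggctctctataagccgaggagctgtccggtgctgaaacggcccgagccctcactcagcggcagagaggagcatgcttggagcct
Npas4, chr19:4989922-4990221, minus strand: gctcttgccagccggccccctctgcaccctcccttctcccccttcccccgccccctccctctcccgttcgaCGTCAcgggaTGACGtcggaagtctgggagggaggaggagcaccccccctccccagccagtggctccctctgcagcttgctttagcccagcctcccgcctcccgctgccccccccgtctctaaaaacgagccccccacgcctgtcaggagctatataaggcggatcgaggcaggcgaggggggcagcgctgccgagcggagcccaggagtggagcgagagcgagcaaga
Adcyap1, chr17:93198767-93199066, plus strand: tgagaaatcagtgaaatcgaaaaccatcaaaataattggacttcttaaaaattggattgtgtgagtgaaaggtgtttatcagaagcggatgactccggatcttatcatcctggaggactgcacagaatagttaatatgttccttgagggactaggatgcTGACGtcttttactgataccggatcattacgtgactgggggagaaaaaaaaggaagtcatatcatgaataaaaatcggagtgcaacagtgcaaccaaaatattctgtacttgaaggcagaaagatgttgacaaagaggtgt
Bdnf, chr2:109692186-109692485, plus strand: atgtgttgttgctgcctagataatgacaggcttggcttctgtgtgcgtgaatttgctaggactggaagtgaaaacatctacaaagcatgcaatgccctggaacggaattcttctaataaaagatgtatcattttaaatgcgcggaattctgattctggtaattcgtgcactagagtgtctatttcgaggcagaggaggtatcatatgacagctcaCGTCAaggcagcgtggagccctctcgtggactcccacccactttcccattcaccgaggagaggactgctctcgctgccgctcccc
In the Scg2 window the 2 half-sites overlap to form the full element. The half-site was present in 17 of the 23 rapid genes, 12 of the 27 delayed genes and 15 of the 23 cAMP and CREB targets that had a sequence in the table, against 36.4% of genes past the floor in neurons and 20.8% of all 32851 windows. A gene counted if any of its windows matched, so that the share of windows is in another unit. Of the genes higher past the threshold in Ex13del neurons 24.5% (92 of 375 with a sequence) held it. Among glutamatergic neurons 117 of 390 higher genes with a sequence held it, against 36.8% of those past the floor. The full element was in 3.59% of the higher glutamatergic genes and 3.77% of those past the floor. The half-site was thus more frequent in the rapid list (73.9%) and the cAMP and CREB list (65.2%) than in genes past the floor. The delayed list was nearer to genes past the floor, at 44.4%. List members were counted whether or not they passed the floor, and the cAMP and CREB list holds genes named as CREB targets. These list shares therefore say nothing of the vectors. Among the higher genes the half-site was less frequent than in the background, and a match says nothing of binding.

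Levels of several activity genes followed the vector RNA of a nucleus in the Ex13del library and not in the WT library. Neurons were split by their vector UMIs into 0, 1 to 2, 3 to 9, and 10 or more, limits that were set after the data were seen. These groups held 2220, 642, 70 and 36 Ex13del neurons and 2776, 612, 105 and 47 WT neurons. In this order Bdnf was 24.7, 34.9, 159 and 339.7 CPM in the Ex13del library and 20.2, 21.1, 30.4 and 9.49 CPM in the WT library. Nptx2 was 13.9, 28.7, 108 and 183 CPM against 7.35, 6.54, 4.34 and 11.1 CPM. Adcyap1 was 6.55, 11.3, 101 and 239.8 CPM against 5.05, 4.07, 0.868 and 3.16 CPM. In all 3 genes the upper groups of the Ex13del library stood several times above its lower groups, whereas no WT group was above 30.4 CPM. Neurons with 10 or more vector UMIs were 29 glutamatergic, 5 GABAergic and 0 striatal of 36 in the Ex13del library. In the WT library they were 27, 12 and 8 of 47. The part of this makeup in the levels was not tested. Ex13del neurons with 3 to 9 and with 10 or more vector UMIs summed to 860764 and 550459 UMIs. Those of the WT library summed to 1151667 and 632461. A level of a few CPM in these groups therefore rests on a few UMIs.

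Sik3 was higher with more vector in both libraries, at 219.9, 215, 336 and 563 CPM in Ex13del neurons and 209, 218, 344 and 675 CPM in WT neurons. Whether reads of the vector's coding sequence were counted for Sik3 was not tested. Scg2 was 44.2, 45.3, 141 and 296 CPM against 35.9, 32.97, 57.3 and 85.4 CPM, so that WT neurons with more vector were higher as well. Jun, with 11.7, 16.3, 33.7 and 70.8 CPM and 8.75, 9.88, 19.97 and 34.8 CPM, and the cell cycle inhibitor Cdkn1a, with 3.07, 5.15, 27.9 and 78.1 CPM and 2.27, 1.60, 1.74 and 20.6 CPM, were also high in the top group of both libraries. Sorcs3 was 286, 320.1, 572 and 879 CPM in Ex13del neurons and 249, 222, 228 and 261 CPM in WT neurons.

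Other activity genes were not higher with more vector in Ex13del neurons. Nr4a1 was 57.6, 56.9, 49.96 and 54.5 CPM in the 4 groups of Ex13del neurons and 57.1, 49.2, 43.4 and 55.3 CPM in those of WT neurons. Arc, a gene for a synaptic capsid-like protein, was 29.4, 28.5, 15.1 and 9.08 CPM against 23.9, 21.8, 19.97 and 37.9 CPM, and rests on 5 to 16 UMIs in each of the groups with 3 or more vector UMIs. Homer1 was 336, 321, 225 and 271 CPM against 360.1, 353, 250.9 and 239 CPM. Homer1 was lower in the upper groups of both libraries, and Arc in those of the Ex13del library. The marker Slc17a7, the vesicular glutamate transporter, was 194, 205, 216 and 227 CPM against 219, 218, 266 and 266 CPM. Its UMIs count in the rule that called these nuclei neurons, so its level here is partly set by that rule. The rule placed 47 Ex13del and 4 WT nuclei with 10 or more vector UMIs among other nuclei, which these groups leave out. The 106 Ex13del neurons with 3 or more vector UMIs comprised 75 glutamatergic, 23 GABAergic, 3 striatal and 5 tied neurons, and the 152 WT neurons 104, 27, 20 and 1.

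**Figure D3:**
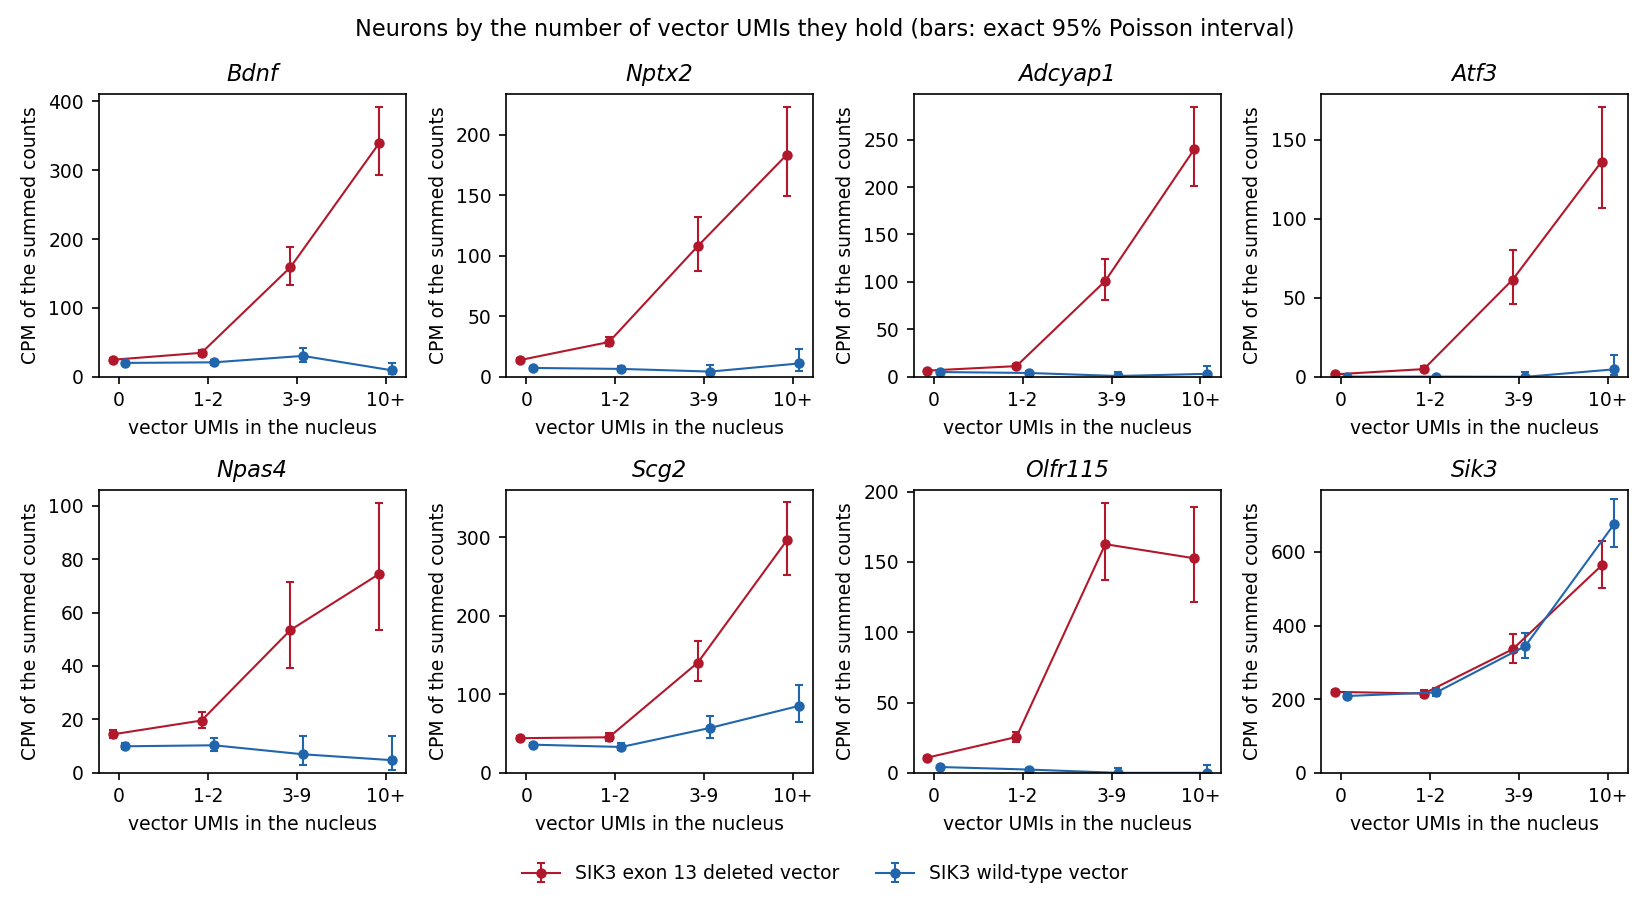
CPM of single genes in neurons grouped by the vector UMIs of the nucleus (0, 1 to 2, 3 to 9, 10 or more), for the Ex13del and WT libraries, with bars for the exact 95% Poisson interval. Bdnf, Nptx2 and Adcyap1 reach 339.7, 183 and 239.8 CPM in the top Ex13del group and are at most 30.4 CPM in every WT group.

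A few genes were concentrated in vector-bearing nuclei of the Ex13del library, and those named in this paragraph were chosen after their values were seen. Atf3, a stress-induced partner of Jun, had 206 against 8 UMIs in neurons, and 128 of the 206 lay in 39 of the 106 Ex13del neurons with 3 or more vector UMIs. Its level over the 4 groups was 1.58, 4.90, 61.6 and 136 CPM in Ex13del neurons and 0.139, 0.145, 0 and 4.74 CPM in WT neurons. Slamf1, a receptor of immune cells, had 293 against 15 UMIs, of which 117 lay in 28 of those 106 neurons. Olfr115, an olfactory receptor gene on chromosome 17 that overlaps Olfr116 on the same strand, was 20.4 CPM in the Ex13del library, 3.61 CPM in the WT library, 7.76 CPM after ad lib sleep and 3.53 CPM after sleep deprivation. Of its 695 Ex13del UMIs 224 lay in 37 of the 106 neurons, and the 152 WT neurons of that kind held 0 of 135. Its neighbours Olfr112 and Olfr111 had 158 and 114 UMIs in the 106 neurons and 0 in the 152. Tgfb2, a secreted growth factor, was 18.1 against 7.84 CPM, and 304 of its 618 Ex13del UMIs lay in 50 of the 106 neurons. Gene families with near-identical members can share reads, which makes the olfactory receptor values less certain.

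Some genes were low where the vector was high, again chosen after their values were seen. Map2k6, an upstream kinase of p38, was 69.6, 64.5, 31.4 and 3.63 CPM in Ex13del neurons and 77.8, 73.4, 103 and 111 CPM in WT neurons. Cacna1g, the T-type calcium channel Cav3.1, was 30.5, 28.2, 13.9 and 1.82 CPM against 32.3, 30.8, 44.3 and 63.2 CPM. Hlf, a PAR bZIP clock output factor, was 112, 103, 66.2 and 29.1 CPM against 109.8, 110.0, 128 and 136 CPM. These 3 were lowest in the top group of the Ex13del library and highest in the top group of the WT library. The top Ex13del group summed to 550459 UMIs, so that its Map2k6 and Cacna1g values rest on a few UMIs.

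Without the neurons with 3 or more vector UMIs, part of the difference between libraries remained. The neurons kept still included 642 Ex13del and 612 WT neurons with 1 to 2 vector UMIs. Bdnf was then 27.2 against 20.4 CPM (1.34-fold, 95% interval 1.21 to 1.48), Nptx2 17.5 against 7.20 CPM (2.43-fold, 95% interval 2.09 to 2.83) and Adcyap1 7.71 against 4.86 CPM (1.58-fold, 95% interval 1.30 to 1.93). Bdnf was then close to the sleep-deprived library, which had 25.8 CPM over all its neurons. Npas4 was 15.7 against 10.01 CPM, and Atf3 had 78 against 5 UMIs. Of the 530 higher and 59 lower genes 424 and 49 were past the fold threshold without these neurons. Most genes past the fold threshold therefore did not need the vector-rich nuclei, although ratios of the activity genes were largest with them.

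Several of the genes with the highest ratios in neurons were those of striatal projection neurons, and they moved with the share of such neurons in the libraries. Penk, the enkephalin precursor, was 38.6 CPM in the Ex13del library, 13.2 CPM in the WT library, 19.5 CPM after ad lib sleep and 34.9 CPM after sleep deprivation. Rgs9, a regulator of dopamine receptor signalling, had 97.1 against 43.7 CPM and 47.9 and 87.7 CPM, and Pde1c, a calmodulin-dependent phosphodiesterase, 67.6 against 27.5 CPM and 29.5 and 70.01 CPM. Rarb, a retinoic acid receptor, was 144 against 70.7 CPM and 79.7 and 118 CPM. In each the Ex13del and sleep-deprived libraries were high and the WT and ad lib libraries low, the same order as the striatal shares. All 10 striatal markers were higher in the Ex13del library, with a summed level in neurons of 1541 against 1229 CPM and of 1139 and 1628 CPM in the uninjected libraries, and none was at 0.

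Leaving out neurons rich in striatal markers, a step added after the data were seen, took the log2 ratio of Gng7, a G protein subunit, from 0.83 to -0.00028 and that of Dach1, a transcription factor, from 0.88 to -0.05. Penk was then still 17.6 against 8.21 CPM. Bdnf was 38.4 against 20.7 CPM (1.86-fold, 95% interval 1.69 to 2.04), Nptx2 24.4 against 7.26 CPM and Adcyap1 14.7 against 4.84 CPM, ratios at least as large as with all neurons. Of the 530 higher genes 357 and of the 59 lower 32 were past the fold threshold in the remaining neurons, where 472 were higher and 45 lower in all. The striatal cut is a range and not a type: 252 Ex13del and 430 WT neurons lay within 15 to 40 striatal marker UMIs per 10000.

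Another set of genes differed by a similar ratio in neurons and in other nuclei. AC149090.1 was 364 CPM in the Ex13del library, 188 CPM in the WT library, 454 CPM after ad lib sleep and 537 CPM after sleep deprivation in neurons, and 305 against 155 CPM in other nuclei. Gm19951, a long noncoding RNA on chromosome 12, was 68.96 against 34.1 CPM and 73.2 against 36.5 CPM. Rpl35, a ribosomal protein gene with overlapping neighbours, was 32.5 against 19.03 CPM and 84.5 against 39.4 CPM, Rpl38 112 against 74.3 CPM and 274 against 183 CPM, and the mitochondrial transcript mt-Nd4l 45.6 against 29.8 CPM and 83.5 against 58.4 CPM. AC149090.1 was higher still in both uninjected libraries, so that the WT library is the low one, whereas Gm19951 was highest in the Ex13del library. Of genes past the floor in both kinds of nuclei, 241 were higher past the threshold in both, which is 48.0% of the 502 higher in neurons and 29.6% of the 813 higher in other nuclei. With 1 library per group the animal, the dissection and the library preparation cannot be told apart from the vector.

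Fewer genes were lower in Ex13del neurons, and their ratios were smaller. C77080, a protein-coding gene that overlaps Yars on the other strand, was 16.01 CPM in the Ex13del library, 25.03 CPM in the WT library, 37.1 CPM after ad lib sleep and 30.8 CPM after sleep deprivation, a ratio of 0.640-fold (95% interval 0.574 to 0.712). The long noncoding RNAs Gm47283 and Gm49171 were 23.8 against 34.8 CPM and 30.1 against 42.8 CPM. Tox, a transcription factor of the HMG-box family, was 237 CPM in the Ex13del library, 306 CPM in the WT library, 326 CPM after ad lib sleep and 225 CPM after sleep deprivation. Cox6a1, a subunit of cytochrome c oxidase, was 59.02 against 75.6 CPM, Nuak1, an AMPK-related kinase of the same family as the SIKs, 47.7 against 60.8 CPM, and the tubulin gene Tuba1b 30.1 against 38.2 CPM. C77080 and Tuba1b were lowest in the Ex13del library, whereas Tox was as low after sleep deprivation and the WT library stood highest for Gm47283, Gm49171 and Cox6a1.

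Genes of the SIK pathway and the clock had shares past the threshold near those of all genes in neurons, which were 4.3% higher and 0.478% lower. Of the SIK pathway's kinases, phosphatases, deacetylases and coactivators 0 of 28 were higher past the threshold and 0 lower in neurons, with a median of 0.01. Hdac7, a class IIa deacetylase, had the lowest ratio among them with 65.1 against 79.8 CPM. Core clock and clock output genes had 1 of 20 higher, 0 lower and a median of -0.01. The member past the fold threshold was Per3, a period gene, with 72.5 CPM in the Ex13del library, 53.2 CPM in the WT library, 43.7 CPM after ad lib sleep and 44.7 CPM after sleep deprivation. Both vector libraries lay above both uninjected ones for Per3, and it was lowest in Ex13del neurons with the most vector RNA (73.7, 71.6, 68.5 and 36.3 CPM over the 4 groups).

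Synaptic and channel lists are given against the 4.3% higher and 0.478% lower of all genes in neurons, so that 0 to 2 members past the threshold is near the general share. Of the glutamatergic postsynapse, with receptors and scaffolds, 0 of 47 were higher and 0 lower, with a median of -0.03. GABA-A receptors and inhibitory postsynaptic genes had 0 of 19 higher and 0 lower, and presynaptic release genes 2 of 39 and 0. Potassium channels had 5 of 39 higher, and calcium, sodium and HCN channels 4 of 31, with none lower in either. Some of these calls moved with the striatal share, and the genes given next were chosen after their values were seen. Cacnb2, a calcium channel subunit, was 576 against 432 CPM in all neurons, and its log2 ratio went from 0.42 to -0.06 when neurons rich in striatal markers were left out. Kcnn3, a calcium-activated potassium channel, went from 0.46 to -0.07 and the release factor Unc13c from 0.36 to -0.14. Kcna1, a fast voltage-gated potassium channel, was 146 against 114 CPM with log2 ratios of 0.36 and 0.37. Neuropeptides, among them Penk, Adcyap1 and Tac1, had 4 of 12 higher and a median of 0.21. Tac1, the substance P precursor, was 17.7 CPM in the Ex13del library, 9.58 CPM in the WT library, 13.8 CPM after ad lib sleep and 17.1 CPM after sleep deprivation and is also a gene of striatal neurons, like Penk.

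Stress and metabolic lists had medians near 0, and the myelin list did not. Cytosolic heat shock proteins had a median of -0.01 and 0 of 16 higher past the fold threshold. The endoplasmic reticulum chaperones had 0 of 21 and a median of 0.07. Nuclear-encoded oxidative phosphorylation genes had 1 of 38 higher, 1 lower (Cox6a1) and a median of -0.00056. Myelin genes, which neurons do not make, had 7 of 11 higher in neurons, against 4.3% of all genes, with a median of 0.39. The summed level of the 10 oligodendrocyte markers in neurons was 398 against 343 CPM in the vector libraries and 413 and 428 CPM in the uninjected ones. Oligodendrocyte marker RNA in neuron droplets thus moved with the comparison, and its part in the neuron values was not tested.

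**Figure D4:**
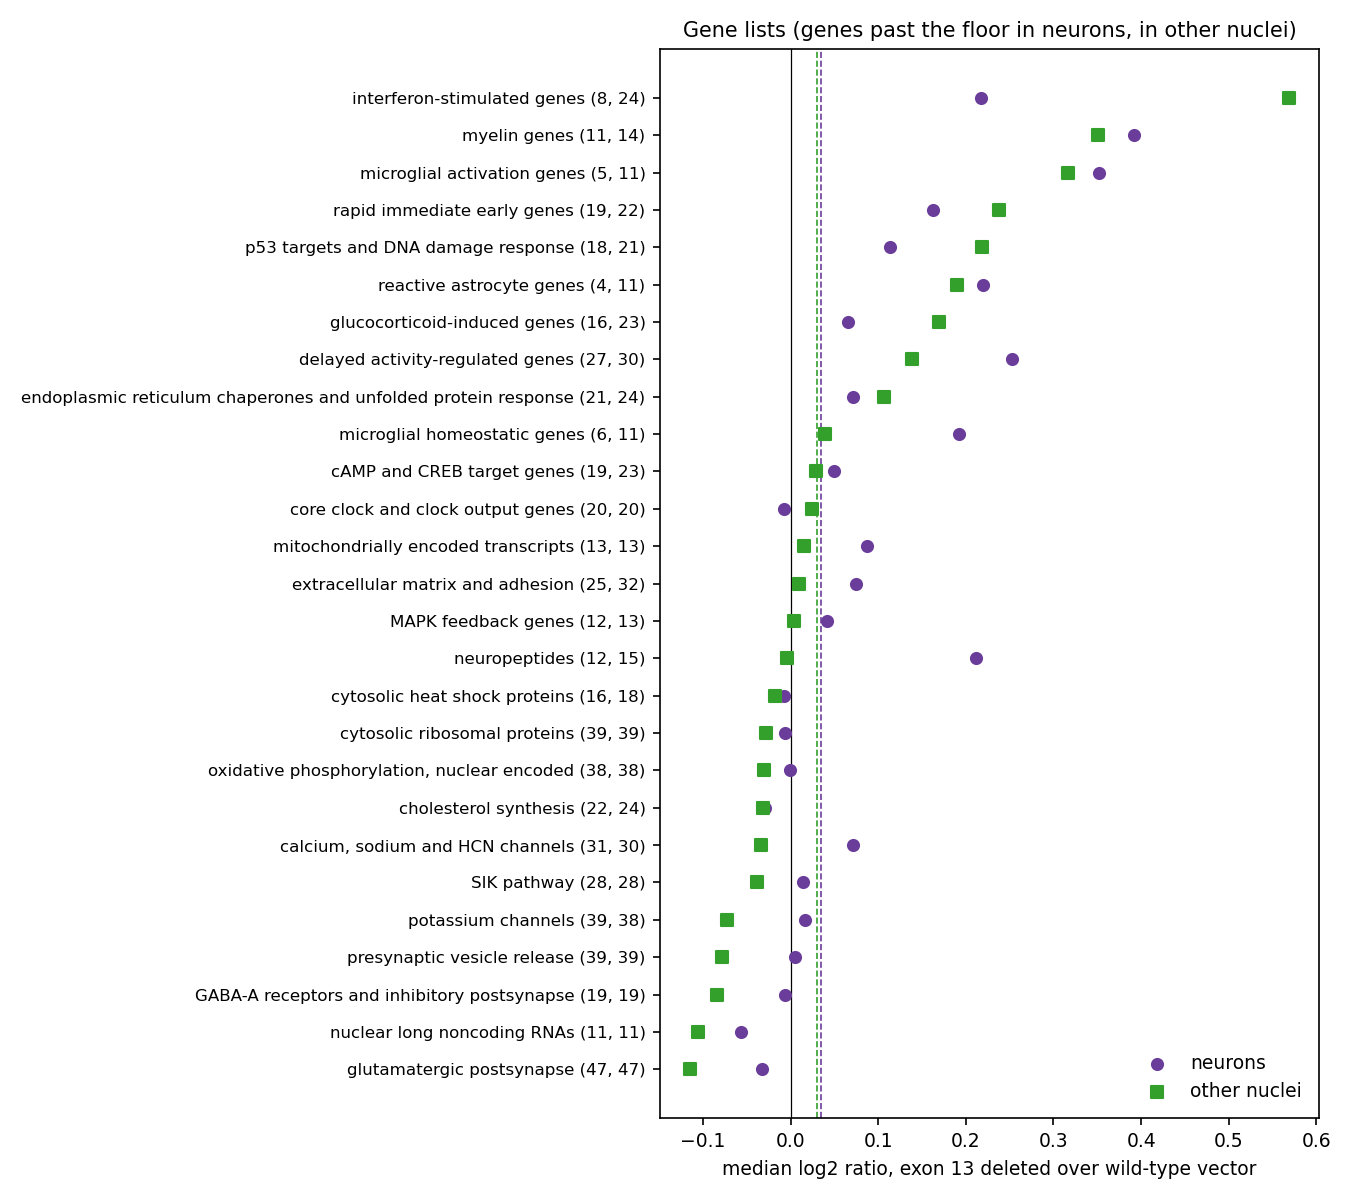
Median log2 ratio of the Ex13del over the WT library for the genes past the floor in each of 27 lists, in neurons and in other nuclei; dashed lines are the medians over all genes past the floor (0.035 and 0.031) and bracketed numbers the genes past the floor. Interferon-stimulated genes in other nuclei lie farthest to the right at 0.57, and the glutamatergic postsynapse is below 0 in both.

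In other nuclei the spread was wider. Of 13437 genes past the floor 1147 were higher past the threshold in the Ex13del library, which is 8.54%, and 461 lower, which is 3.43%, with a median log2 ratio of 0.031. Scaling by the median gene ratio gave 980 and 590. This excess of higher genes was smaller in the nuclei placed in a glial or vascular class, described next, where the counts were 912 and 672 of 11150 genes, with a median log2 ratio of 0.00026. Within each of the 5 classes given here more genes were lower than higher: 425 higher (8.92%) and 546 lower (11.5%) in astrocyte-like nuclei, 488 (9.98%) and 615 (12.6%) in oligodendrocyte-like, 283 (12.5%) and 317 (14%) in precursor-like, 334 (13%) and 389 (15.2%) in microglia-like, and 250 (11.5%) and 266 (12.3%) in endothelial-like nuclei. The Ex13del value was above both uninjected libraries for 755 of the 1147 genes, a choice that favours this count, against 4014 of 13437 over all genes past the floor. Nuclei were assigned to glial and vascular classes by marker sums whose thresholds were set after the data were seen, and the classes are named "-like" for that reason. They held 351 and 390 astrocyte-like nuclei (Ex13del and WT), 499 and 485 oligodendrocyte-like, 144 and 153 precursor-like, 211 and 238 microglia-like, 215 and 255 endothelial-like and 85 and 125 pericyte-like nuclei. Near the threshold lay 34 and 51 of the astrocyte-like, 23 and 26 of the oligodendrocyte-like, 18 and 16 of the precursor-like, 14 and 16 of the microglia-like and 16 and 13 of the endothelial-like nuclei. Another 1275 and 1466 nuclei fell in no class, and they held 4633430 of the 8979261 and 5331083 of the 9936745 UMIs of other nuclei. Their leading genes included Cntn5, Galntl6, Cntnap2, Snhg11 and Meg3. Sums over other nuclei are thus not sums over glia alone. Microglia-like nuclei held a median of 15 and 14 microglial marker UMIs and of 2 UMIs each of astrocyte and neuron markers.

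Interferon-stimulated genes, which cells switch on after sensing viral nucleic acid or interferon, were higher almost as a group. Of those past the floor 20 of 24 were higher past the threshold and 0 lower, and 24 of 24 had a log2 ratio above 0, with a median of 0.57. Over all genes past the floor in other nuclei 8.54% were higher past the threshold and 3.43% lower. Their summed level was 506 CPM in the Ex13del library, 341 CPM in the WT library, 273 CPM after ad lib sleep and 337 CPM after sleep deprivation, a ratio of 1.48-fold (1.42 to 1.55). The WT library lay just above the higher of the uninjected libraries, and the Ex13del library above all 3.

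Bst2, or tetherin, which holds budding virus at the cell surface, was 11.1 CPM in the Ex13del library, 3.92 CPM in the WT library, 3.52 CPM after ad lib sleep and 3.95 CPM after sleep deprivation, a ratio of 2.84-fold (95% interval 1.94 to 4.22). Ifit3, an RNA-binding effector, was 12.9 CPM in the Ex13del library, 5.64 CPM in the WT library, 4.35 CPM after ad lib sleep and 4.63 CPM after sleep deprivation. Ddx58 (RIG-I, a sensor of viral RNA) was 19.7 against 9.36 CPM. Higher values were also found for Nlrc5, the activator of MHC class I genes, at 8.69 against 3.22 CPM, and Xaf1, a proapoptotic target, at 14.7 against 6.14 CPM. Rnf213, a large ubiquitin ligase, was 43.5 against 28.2 CPM. The abundant B2m, the light chain of MHC class I, differed less with 45.3 against 38.8 CPM, and Irf9, a transcription factor of the interferon response, was 19.9 against 19.5 CPM.

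The promoters of Ifit3, Isg15 and Bst2 are shown with the core of the interferon-stimulated response element, which is GAAA, any 2 bases and GAAA on either strand, in capitals, because interferon signalling acts on such genes through this element.
Ifit3, chr19:34583279-34583578, plus strand: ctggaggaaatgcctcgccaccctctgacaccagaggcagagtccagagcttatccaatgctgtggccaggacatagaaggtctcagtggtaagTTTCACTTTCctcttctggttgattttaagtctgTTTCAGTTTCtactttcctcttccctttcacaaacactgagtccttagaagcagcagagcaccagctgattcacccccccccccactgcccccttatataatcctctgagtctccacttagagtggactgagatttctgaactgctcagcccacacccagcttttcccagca
Isg15, chr4:156200769-156201068, minus strand: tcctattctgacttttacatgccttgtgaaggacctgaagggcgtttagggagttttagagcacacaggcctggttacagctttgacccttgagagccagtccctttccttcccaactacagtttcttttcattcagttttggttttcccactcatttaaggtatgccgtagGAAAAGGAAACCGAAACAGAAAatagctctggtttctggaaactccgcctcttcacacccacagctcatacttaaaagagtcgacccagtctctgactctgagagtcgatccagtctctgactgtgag
Bst2, chr8:71537423-71537722, minus strand: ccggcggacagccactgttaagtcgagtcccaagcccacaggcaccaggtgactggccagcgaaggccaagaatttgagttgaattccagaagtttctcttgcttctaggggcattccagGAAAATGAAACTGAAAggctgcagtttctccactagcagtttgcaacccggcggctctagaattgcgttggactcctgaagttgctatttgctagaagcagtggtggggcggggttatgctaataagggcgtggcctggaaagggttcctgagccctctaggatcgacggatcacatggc
The core was in 15 of the 27 listed interferon genes with a sequence, counted whether or not they passed the floor. It was in 4.89% (39 of 797) of the genes higher past the threshold in other nuclei, in 3.59% (365 of 10175) of those past the floor and in 3.44% of all windows. The last share counts windows and not genes.

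By class, the summed interferon genes differed most in microglia-like and precursor-like nuclei. In microglia-like nuclei, the resident phagocytes of brain, they were 1745 CPM in the Ex13del library, 853 CPM in the WT library, 609 CPM after ad lib sleep and 524 CPM after sleep deprivation, a ratio of 2.05-fold (1.83 to 2.30). Oligodendrocyte precursor-like nuclei had 639.6 against 261 CPM (2.45-fold, 2.02 to 2.999), astrocyte-like nuclei 482 against 294 CPM (1.64-fold, 1.44 to 1.88) and oligodendrocyte-like nuclei 359 against 243 CPM (1.48-fold, 1.27 to 1.72). Endothelial-like nuclei were high in all libraries, with 1530.5 against 1322 CPM (1.16-fold, 1.04 to 1.29). Neurons held less: 199 against 144 CPM (1.38-fold, 1.33 to 1.44) in glutamatergic and 164 against 133 CPM (1.23-fold, 1.11 to 1.36) in GABAergic neurons. The difference between these ratios was not tested. In nuclei with under 3 vector UMIs the list still had 20 of 23 members higher past the threshold, with a median of 0.44. The 10 lymphocyte markers, defining genes of T and B cells, summed to 41.7 against 26.2 CPM in other nuclei and 33.1 and 29.1 CPM in the uninjected libraries, and their part in this result was not tested.

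**Figure D5:**
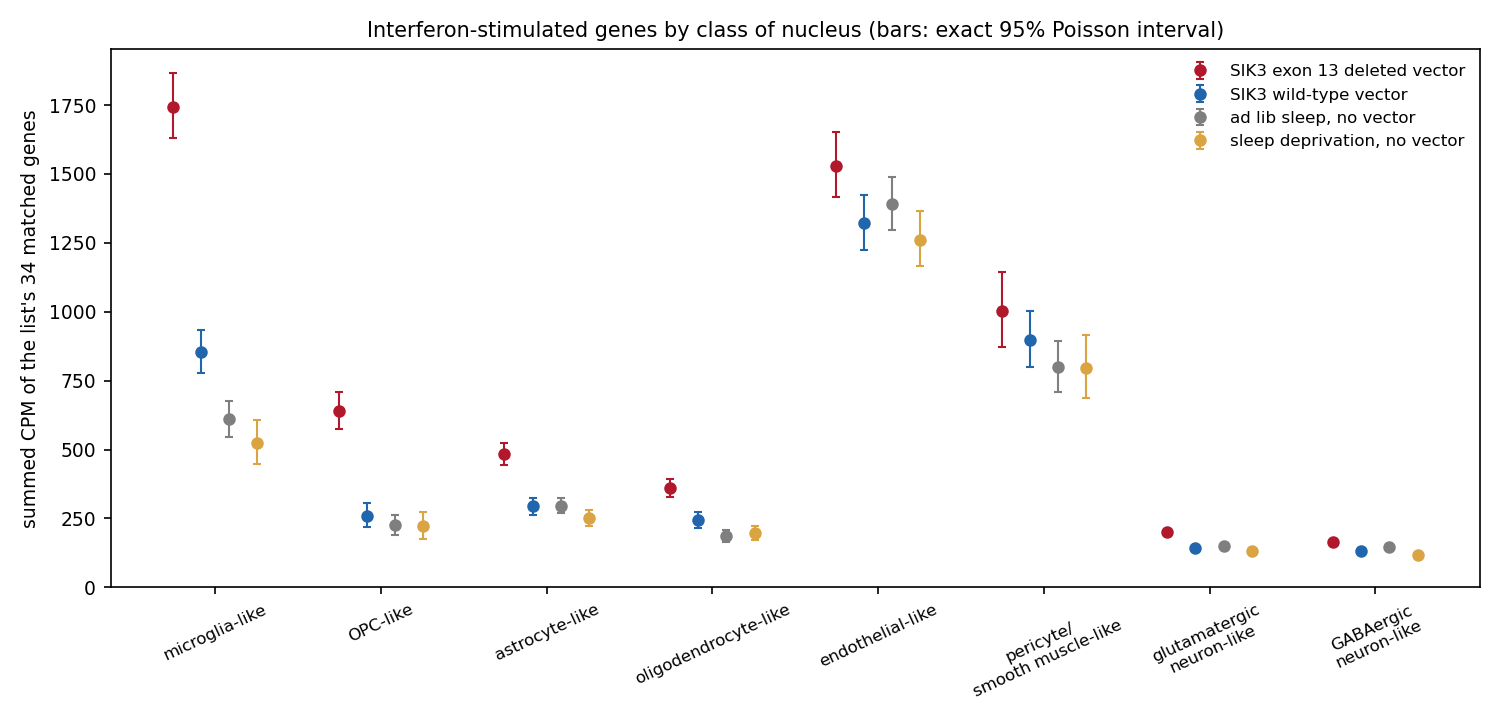
Summed CPM of the interferon-stimulated genes in each class of nuclei for the 4 libraries, with bars for the exact 95% Poisson interval (1 library per group). Microglia-like nuclei of the Ex13del library reach 1745 CPM against 853 CPM in the WT library.

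Markers of reactive glia were higher beside the interferon genes. Gfap, the intermediate filament of reactive astrocytes, was 33.1 CPM in the Ex13del library, 10.97 CPM in the WT library, 9.73 CPM after ad lib sleep and 25.6 CPM after sleep deprivation in other nuclei and 104 against 34.8 CPM in astrocyte-like nuclei. The sleep-deprived library was thus also well above the ad lib one. After each nucleus was thinned to 1000 UMIs, leaving out 31 and 28 shallower nuclei, a Gfap UMI was held by 6.56% of Ex13del astrocyte-like nuclei (exact interval 4.11 to 9.86) and 4.14% of WT ones (2.34 to 6.74), and these intervals overlap (15.7% and 8.97% without thinning). The same thinned shares were 3.33% and 1.31% in oligodendrocyte-like, 4.0% and 0.913% in endothelial-like and 2.13% and 0.469% in microglia-like nuclei, types that do not make Gfap, so that part of the Gfap read here is background and the Ex13del shares were higher there too. C4b, a complement component, was 17.4 CPM in the Ex13del library, 5.13 CPM in the WT library, 2.21 CPM after ad lib sleep and 3.68 CPM after sleep deprivation, with 48.2 against 10.1 CPM in oligodendrocyte-like nuclei, and the Ex13del value stood above the other 3 libraries. Its thinned shares were 2.44% (1.23 to 4.33) and 1.09% (0.355 to 2.53) in oligodendrocyte-like nuclei. In astrocyte-like nuclei they were 3.125% (1.51 to 5.67) and 2.49% (1.14 to 4.67), and the intervals overlap in both classes. Cd44, a hyaluronan receptor, was 12.7 against 5.43 CPM. Of the reactive astrocyte list 4 of 11 were higher past the threshold and 0 lower, with a median of 0.19. The shares over all genes in other nuclei were 8.54% and 3.43%.

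Microglial activation genes were higher, with homeostatic genes near level. Of the activation list 5 of 11 were higher past the threshold and 0 lower (8.54% and 3.43% over all genes), with 10 of 11 above 0. In neurons 3 of its 5 members past the floor were higher as well, against 4.3% of all genes. Their median of 0.35 became -0.12 after each nucleus was thinned to 1000 UMIs, and the list's summed level was 302 against 289 CPM. In microglia-like nuclei its summed level was 3169 CPM in the Ex13del library, 2242 CPM in the WT library, 2199.9 CPM after ad lib sleep and 2407 CPM after sleep deprivation, a ratio of 1.41-fold (1.31 to 1.52). Homeostatic genes, which mark resting microglia, summed to 6769 against 6942 CPM there (0.975-fold, 0.930 to 1.02). Tyrobp, a signalling adaptor, was 15.8 against 9.86 CPM, and C1qb, a complement subunit, 45.2 against 32.9 CPM. The share of microglia-like nuclei was 7.40% of other nuclei in the Ex13del library and 7.46% in the WT library.

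Some p53 targets were higher, most clearly with the vector-bearing nuclei included. In other nuclei 7 of 21 were higher past the threshold and 0 lower (8.54% and 3.43% over all genes), with a median of 0.22. Psrc1, a spindle protein gene induced by p53, was 14.03 against 3.62 CPM, Cdkn1a 17.5 against 5.54 CPM and Mdm2, the ligase that degrades p53, 70.2 against 46.3 CPM. Without nuclei with 3 or more vector UMIs the median was 0.05. Atf3 had 123 against 5 UMIs in other nuclei, and 70 of the 123 lay in 33 of the 99 Ex13del nuclei with 3 or more vector UMIs.

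Myelin genes were higher, with Mbp, the basic protein of myelin, nearly level. Of the list 9 of 14 were higher past the threshold, against 8.54% of all genes in other nuclei, with a median of 0.35. Cldn11, a tight junction protein of myelin, was 89.99 CPM in the Ex13del library, 61.3 CPM in the WT library, 51.1 CPM after ad lib sleep and 92.8 CPM after sleep deprivation and Mal, a raft protein of myelin, 187 against 136 CPM, whereas Mbp was 634 against 616 CPM. The share of oligodendrocyte-like nuclei among other nuclei was 17.5% in the Ex13del library and 15.2% in the WT library, and the 10 oligodendrocyte markers summed to 2975 against 2533 CPM. Their number and their RNA per nucleus cannot be told apart in these sums.

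Genes lower in other nuclei included genes of neurons and vessels. Kcnc2, a fast potassium channel of interneurons, was 235 CPM in the Ex13del library, 373 CPM in the WT library, 375 CPM after ad lib sleep and 201 CPM after sleep deprivation. Grik1, a kainate receptor subunit, was 132 against 206 CPM with 198 and 124 CPM, and Kcnmb2, a BK channel subunit, 81.9 against 129 CPM with 128 and 61.2 CPM. For these genes the Ex13del and sleep-deprived libraries were low and the WT and ad lib libraries high. The 10 inhibitory neuron markers summed to 2019 against 2571 CPM in other nuclei, and to 2332 and 1812 CPM in the uninjected libraries. They include Gad1 and Gad2, whose UMIs the neuron rule limits in other nuclei. Mecom, a transcription factor of endothelium, was 110.4 CPM in the Ex13del library, 159.8 CPM in the WT library, 78.9 CPM after ad lib sleep and 198 CPM after sleep deprivation, and the 10 endothelial markers summed to 890.3 against 1110 CPM. In the nuclei placed in a glial or vascular class Kcnmb2 had a log2 ratio of 0.28, against -0.65 in other nuclei as a whole. Neuronal RNA in nuclei under the 3-UMI limit thus moved with these values. Of the glutamatergic postsynapse list 5 genes were lower and 0 of 47 higher in other nuclei, against 3.43% and 8.54% of all genes.

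The sleep-deprived and ad lib libraries allow the same genes to be read for sleep loss, with no library shared between the comparisons. In cortical glutamatergic neurons 12006 genes passed the floor in both. Of the 495 genes higher past the threshold with Ex13del, 53 (10.7%) were higher past the threshold after sleep deprivation and 119 (24.0%) lower. Over all glutamatergic genes past the floor after sleep deprivation 7.43% were higher and 10.5% lower. The 53 genes are 5.94% of the 892 genes higher after sleep deprivation. Of the 65 genes lower with Ex13del 10 (15.4%) were higher and 19 (29.2%) lower after sleep deprivation. Genes past the fold threshold in either direction with Ex13del were thus more often lower than higher after sleep deprivation, as were genes overall.

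The lists also differed between the comparisons, with medians in all neurons given for Ex13del over WT first and sleep deprivation over ad lib sleep second. Rapid immediate early genes had medians of 0.16 and -0.11, and delayed activity genes 0.25 and 0.20. Heat shock proteins had -0.01 and 0.25, glucocorticoid-induced genes 0.07 and 0.36, and cholesterol synthesis genes -0.03 and -0.32. Heat shock, glucocorticoid and sterol lists, which lay away from 0 after sleep deprivation, were near 0 between the vectors, and delayed activity genes were above 0 in both. The striatal share, which was 5.65% after ad lib sleep and 10.8% after sleep deprivation, moved with both comparisons in all neurons.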

How the data were processed

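Single-nucleus RNA was measured in 4 libraries of mouse motor cortex, 1 per group. The authors deposited UMI counts per gene and barcode, from Chromium 3' v3.1 libraries per the labels' protocols; the submitters' processing notes name Cell Ranger 6.1.2 and mm10. Strand and intron settings and the vector reference are not given in the sources used here. The members and gene lists were chosen with earlier results of these data known, and the thresholds for classes, striatal neurons and vector groups were set after seeing the data.

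Counts were summed over neurons and over other nuclei and scaled to CPM. Ratios carry exact conditional and levels exact Poisson 95% intervals, shares Clopper-Pearson intervals, all for counting error only (scipy 1.17.1, numpy 2.4.6, pandas 2.3.3). The procedure was tested on simulated data. Genes are named by this rule: Sik3 and the vector, the 15 highest and 15 lowest log2 ratios in neurons at a mean of 20 CPM, the 10 highest and 10 lowest in other nuclei at 50 CPM, and of each list the 3 most abundant and the 3 with the largest ratio. Other named genes were chosen after their values were seen. The rule covers more genes than the text prints. Classes in the text come from sums of 10 markers each. Doublets were left in: the automatic Scrublet threshold (scanpy 1.11.5) called 4 Ex13del and 0 WT nuclei, and leaving out the highest-scoring share that loading predicts was an alternative. Annotation is GENCODE vM21, in which 32158 of 32286 features matched. Promoters are RefSeq on GRCm38.p6. Ddit3 has a pair of features with 1 symbol and was left out.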

Additional observations from a re-analysis of the deposited data

Results flagged for a closer look

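Past the fold threshold, 5 genes lay in opposite directions in neurons and in other nuclei, and the difference between the kinds of nuclei was not tested. Gm6260 was 6.27 against 8.83 CPM in neurons (Ex13del, then WT) and 12.4 against 5.13 CPM in other nuclei, a difference of log2 ratios, neurons minus other nuclei, of -1.56. Gm29260 was 4.75 against 6.32 CPM in neurons and 16.1 against 10.2 CPM in other nuclei, a difference of -0.97. Cdr2l, a relative of an onconeural antigen, was 7.83 against 10.7 CPM and 17.04 against 13.2 CPM, a difference of -0.75. Cntnap3, a contactin-associated adhesion protein, went the other way with 35.4 against 25.2 CPM in neurons and 20.9 against 28.7 CPM in other nuclei, a difference of 0.91. Ebf1, a transcription factor of striatal neurons and of vessel wall cells, was 22.1 against 16.9 CPM in neurons and 151 against 192 CPM in other nuclei, a difference of 0.71. The share of striatal neurons moved with the neuron value of Ebf1, whose log2 ratio in neurons was -0.06 without them.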

How the results depend on the processing

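No paired analysis was possible because each group holds 1 library and the labels carry no replicate numbers, and no library could be left out. Counts past the fold threshold (higher and lower: 530 and 59 in neurons, 1147 and 461 in other nuclei, 538 and 67 in glutamatergic neurons, with 53 of the last also higher after sleep deprivation) depended on the floor and on the amount added to each level. A mean of at least 20 CPM gave 169 and 15, 369 and 182, and 125 and 18, with 15 shared. No floor gave 1583 and 272, 3566 and 1512, and 1776 and 369, with 141 shared. Adding 5 CPM gave 281 and 20, 682 and 255, and 256 and 25, with 23 shared. Scaling by the median gene ratio moved the lower genes to 92 in neurons and 106 in glutamatergic neurons. Thinning each nucleus to 1000 UMIs gave 373 lower genes in neurons, 764 higher in other nuclei and 338 lower in glutamatergic neurons, with 122 shared, and of the 530 higher genes 153 were higher there too. Other nuclei with 0 neuron marker UMIs had 796 lower genes. Neurons with 0 vector UMIs, an alternative added after the data were seen, had 102 lower genes. Lists with a median past 0.1 either way in other nuclei numbered 11, against 7 without nuclei with 3 or more vector UMIs and 7 in nuclei with 0; the cause was not tested.

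Of the 95 gene values followed, the sign was kept for 92 under median scaling, 87 after thinning and 94 without the nuclei of highest doublet score. Sizes were less stable: after thinning 45 of 95 moved beyond their counting interval and 3 turned sign past the threshold, and in nuclei with 0 vector UMIs 25 of 93 moved. Among values past the threshold, the sign turned as follows. Without striatal neurons (added after the data were seen) Dach1 was -0.049, Gng7 -0.00028, Ebf1 -0.059, Cacnb2 -0.061, Kcnn3 -0.075 and Unc13c -0.136 in neurons. Ebf1 was -0.081 in neurons taken at 1 or more marker UMIs. After thinning Ebf1 was -0.046, Kcnn3 -0.019, Cdr2l 0.44 and the median of microglial activation genes -0.12 in neurons. In nuclei placed in a glial or vascular class (also added) Cntnap3 was 0.79 and Kcnmb2 0.28. Depth limits glial classes most: a median other nucleus held 2371 UMIs in the Ex13del library and 2356 in the WT library.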
